A study of Mus musculus with 15 samples.

Results

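The annexin genes were examined in the cecum of mice after antibiotic-induced microbiome depletion (AIMD). Anxa1, Anxa2, Anxa3, Anxa4, Anxa5, Anxa6, Anxa7, Anxa9, Anxa11 and Anxa13 are 10 of the 45808 rows of the deposited table, and all 10 were above 0 and were among the 11971 genes tested. They were chosen by family name together with measured values of these same mice, so their differences between AIMD mice and vehicle-treated mice are given as a description, with no test. The table holds 12 mouse annexin symbols in all, and the remaining ones are Anxa8 and Anxa10.

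Cecal poly-A RNA was sequenced from 7 AIMD mice and 8 vehicle-treated mice. All were wild-type C57BL/6, which the labels give as 20 weeks old, whereas the methods of the study put a younger age at the start of gavage. AIMD mice received ampicillin, vancomycin, neomycin, metronidazole and amphotericin B by oral gavage at both ends of each day for 30 days, and vehicle-treated mice were gavaged with water on that schedule. The whole emptied cecum was used, so less RNA per cell and fewer cells of a type cannot be told apart. The cocktail holds an antifungal agent as well as antibacterial ones, and bacterial loss and direct action of the drugs on the tissue cannot be told apart either.

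Annexins are proteins that bind acidic phospholipids when calcium is present. They share a core of repeats that carries the calcium sites, and each has its own amino-terminal tail that binds partners such as S100 proteins. They are known for joining membranes, for repair of the plasma membrane and, in the case of Anxa1, for ending inflammation and helping wounds of the intestinal epithelium to close.

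The windows around the transcription start sites of 3 members are shown, from 250 bases before to 50 bases after the start. Anxa1 had the largest ratio between the groups, Anxa2 the highest level, and Anxa7 levels that differed between mice apart in their clock genes. Anxa7 has 2 windows, of which the one that holds a motif match is printed and the other held none. Levels are in FPKM, which are reads of a gene relative to its exon length and to a scaling factor of the library. All 3 windows are from RefSeq on GRCm38.p6, written 5′ to 3′ on the strand of the gene, with motif matches in capitals.

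Anxa1 (minus strand, chr19:20390622-20390921): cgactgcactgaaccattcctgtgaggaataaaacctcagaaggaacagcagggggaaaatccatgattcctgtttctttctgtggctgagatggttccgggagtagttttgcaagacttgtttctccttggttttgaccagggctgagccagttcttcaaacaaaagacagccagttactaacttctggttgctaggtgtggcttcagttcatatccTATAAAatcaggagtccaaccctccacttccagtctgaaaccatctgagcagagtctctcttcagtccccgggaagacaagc
Anxa2 (plus strand, chr9:69453433-69453732): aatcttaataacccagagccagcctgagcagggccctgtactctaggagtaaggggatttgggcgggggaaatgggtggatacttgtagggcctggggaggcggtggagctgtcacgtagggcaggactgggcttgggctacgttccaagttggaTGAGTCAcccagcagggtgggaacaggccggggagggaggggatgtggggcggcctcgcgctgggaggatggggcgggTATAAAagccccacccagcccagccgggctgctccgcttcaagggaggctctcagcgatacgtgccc
Anxa7 (minus strand, chr14:20479892-20480191): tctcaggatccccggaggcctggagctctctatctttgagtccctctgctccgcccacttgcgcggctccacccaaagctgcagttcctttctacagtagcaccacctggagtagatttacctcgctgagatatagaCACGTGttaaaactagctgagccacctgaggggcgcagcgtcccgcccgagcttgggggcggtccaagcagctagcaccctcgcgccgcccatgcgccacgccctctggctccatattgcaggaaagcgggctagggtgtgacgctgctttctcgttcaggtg

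In the Anxa1 window the capitals mark TATAAA, which starts 32 bases before the start site. In the Anxa2 window they mark TGAGTCA, the AP-1 site, 95 bases before the start, and TATAAA 17 bases before it. In this window of Anxa7 they mark CACGTG, the E-box that CLOCK and BMAL1 bind, 113 bases before the start. CACGTG was in no other window of the members, that of Anxa1 included. Of the 32851 promoter windows in the RefSeq table, 13.6% held TATAAA, 7.81% held the AP-1 letters TGANTCA and 7.15% held CACGTG, with both strands searched. Windows were found for 7 of the 10 members and numbered 10, since some genes have more than 1 start. One window of Anxa4 held 2 copies of AGAACA, the half-site of the glucocorticoid response element, which 19.0% of all windows held. The whole glucocorticoid response element (0.00913% of all windows), the CRE TGACGTCA (1.79%) and the D-box letters TTATGTAA (0.938%) and TTACGTAA (0.119%) were in none of the 10 windows. These matches describe letters in the windows and were not tested as binding sites.

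Anxa1, the annexin that glucocorticoids induce and whose secreted form acts on formyl peptide receptors, had the largest difference of the family. The gene lies on the minus strand at chr19:20373428-20390944 (GENCODE M21 on GRCm38). AIMD mice ranged from 50.2 to 96.2 FPKM with a median of 69.1, and vehicle-treated mice from 4.19 to 11.9 with a median of 7.64. The means were 72.4 ± 15.1 (SD, n = 7) and 7.92 ± 2.61 (SD, n = 8), a ratio of 9.14. The groups did not overlap, and the lowest AIMD mouse was more than 4 times the highest vehicle-treated mouse. On the scale of log2(FPKM + 0.5) the difference was 3.15 (SE 0.19), and 4 of the 11971 genes tested had a larger one. Between 1740 and 3298 reads per AIMD mouse and between 81 and 240 reads per vehicle-treated mouse stood behind these values.

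**Figure D1:**
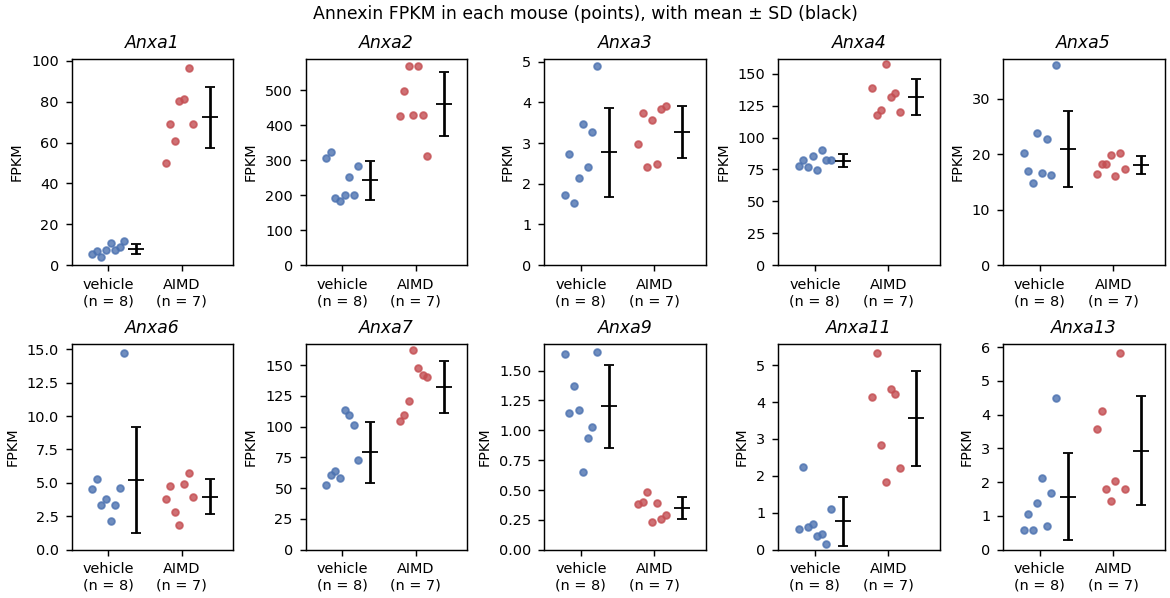
FPKM (y axis, linear, from 0) of the 10 annexin genes in each mouse, with vehicle-treated mice in blue, AIMD mice in red and black marks for mean ± SD. The groups are apart for Anxa1, Anxa4 and Anxa9 and overlap for the other 7 genes.

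The groups did not overlap for 2 members that were higher in AIMD mice (Anxa1 and Anxa4) and for 1 that was lower (Anxa9), where 5.27% and 3.30% of all genes tested did so in those directions. Because the members were selected on this comparison, nothing is read from their count. The median log2 difference was 0.73 over the members and 0.01 over all genes tested.

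**Figure D2:**
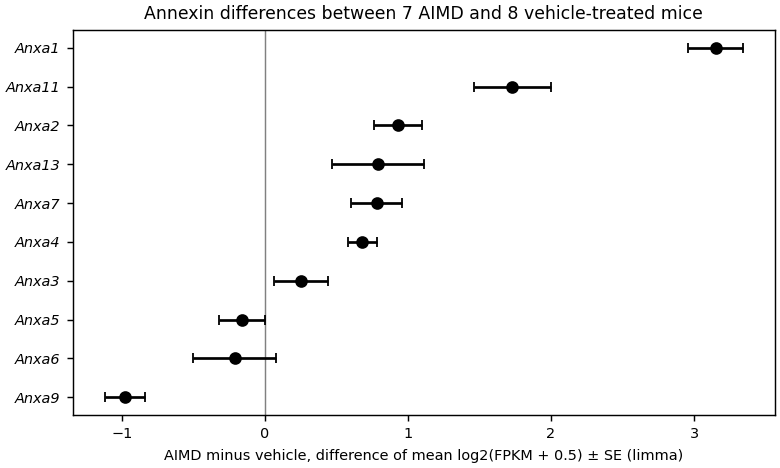
Difference between 7 AIMD and 8 vehicle-treated mice in mean log2(FPKM + 0.5) (x axis) for each annexin gene, with bars for the limma SE. Anxa1 lies at 3.15, Anxa11 at 1.73 and Anxa9 at -0.98, and Anxa3, Anxa5 and Anxa6 lie near 0.

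Anxa2, which forms a tetramer with S100a10 and binds plasminogen and actin at the cell surface, was the most abundant annexin in both groups. The gene is at chr9:69453620-69491795 on the plus strand. AIMD mice ranged from 311.0 to 569.8 FPKM with a median of 430.1, and vehicle-treated mice from 182.7 to 324.6 with a median of 226.8. In 6 of 7 AIMD mice it was above the highest vehicle-treated mouse. The means were 461.8 ± 91.5 (SD, n = 7) and 242.7 ± 55.9 (SD, n = 8), and the log2 difference was 0.93 (SE 0.17).

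Anxa4, found at the membranes of polarized epithelial cells, is at chr6:86736840-86793584 on the minus strand. It varied least of the family within vehicle-treated mice, with a coefficient of variation of 6.24%. AIMD mice ranged from 117.9 to 157.4 FPKM with a median of 132.0, and vehicle-treated mice from 74.97 to 90.64 with a median of 82.4. The groups did not overlap, and the log2 difference was 0.68 (SE 0.10). The size of a difference and the separation of the groups thus ranked the members differently, since Anxa11 differed by more and its groups overlapped.

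Anxa7, a calcium-activated GTPase that takes part in membrane fusion, is at chr14:20455260-20480133 on the minus strand. Its levels in AIMD mice were 104.6 to 161.9 FPKM with a median of 140.1, and vehicle-treated mice from 52.8 to 113.6 with a median of 68.5. In 5 of 7 AIMD mice it was above the highest vehicle-treated mouse. The log2 difference was 0.78 (SE 0.18).

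Anxa11, which has a long amino-terminal tail and links RNA granules to lysosomes, is at chr14:25842156-25886804 on the plus strand. The values of AIMD mice lay between 1.83 and 5.32 FPKM with a median of 4.14, and vehicle-treated mice from 0.148 to 2.25 with a median of 0.590. In 5 of 7 AIMD mice it was above the highest vehicle-treated mouse, vehicle replicate 2. The log2 difference was 1.73 (SE 0.27). It rested on 4 to 126 reads per vehicle-treated mouse, and 16.2% of the 50-base windows of its transcripts also occur in other genes, chiefly Gm2260. Reads of these genes could not be told apart there, and Anxa11 passed the filter on low values only through AIMD mice.

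Anxa9, an annexin whose calcium sites are degenerate, was the member that was lower in AIMD mice. It is at chr3:95296096-95307176 on the minus strand. AIMD mice ranged from 0.232 to 0.483 FPKM with a median of 0.387, and vehicle-treated mice from 0.654 to 1.65 with a median of 1.16. The groups did not overlap, and the log2 difference was -0.98 (SE 0.14). Only 4 to 19 reads per AIMD mouse and 7 to 32 reads per vehicle-treated mouse were counted, and the gene passed the filter only through vehicle-treated mice. The size of this difference depended on the pseudocount, and it was -1.51 with 0.1 and -0.69 with 1.

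Anxa13, the annexin typical of intestinal epithelium and regarded as the founder of the vertebrate family, is at chr15:58341471-58389244 on the minus strand. In AIMD mice it was 1.44 to 5.82 FPKM with a median of 2.04, and vehicle-treated mice from 0.590 to 4.50 with a median of 1.21. The groups overlapped, with 1 of 7 AIMD mice above the highest vehicle-treated mouse. The log2 difference was 0.79 (SE 0.32), on 4 to 70 reads per mouse.

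Anxa3, Anxa5 and Anxa6 differed by about their SE or little more. Anxa3, at chr5:96793339-96845966, had means of 3.27 ± 0.643 FPKM with AIMD (SD, n = 7) and 2.77 ± 1.10 with vehicle (SD, n = 8), a log2 difference of 0.25 (SE 0.19). Anxa5, at chr3:36448923-36475894, whose protein is used to stain exposed phosphatidylserine, had 18.1 ± 1.56 and 20.9 ± 6.90, a log2 difference of -0.16 (SE 0.16). Anxa6, at chr11:54979108-55033445, which carries a doubled annexin core, had 3.98 ± 1.33 and 5.22 ± 3.97, a log2 difference of -0.21 (SE 0.29). For all of them the values of the groups overlapped.

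Vehicle replicate 8 stood apart in Anxa5 (36.0 FPKM), Anxa6 (14.7) and Anxa13 (4.50), and had the fewest reads on genes. Its summed FPKM of 6 smooth muscle markers was 3018, where the other vehicle-treated mice had 517.1 to 1373 and AIMD mice 213.2 to 812.8. It was also the highest of all mice in markers of small intestine (1741), fibroblasts (119.9), squamous epithelium (100.4), adipocytes (36.0) and mesothelium (10.1), and the lowest in goblet cell markers (3905). Without it the log2 difference was -0.04 (SE 0.12) for Anxa5, 0.02 (SE 0.21) for Anxa6 and 1.00 (SE 0.27) for Anxa13. For Anxa1 it was 3.24 (SE 0.18) and for Anxa4 0.69 (SE 0.10). The part of these tissues in the annexin values was not tested.

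The tissue label was checked against markers. All 9 epithelial and all 8 goblet cell markers were tested, and summed from 5561 to 9699 and from 3905 to 13980 FPKM. Reads on genes ranged from 8683745 to 18117829 in AIMD mice and from 4376732 to 14413054 in vehicle-treated mice. Of 8 macrophage and monocyte markers, 4 were called higher in AIMD mice, where 19.4% of all genes tested were. Their sums overlapped, at 81.8 to 246.0 in AIMD mice and 61.8 to 95.5 in vehicle-treated mice. Tuft cell markers, none of them tested, summed to 2.21 to 4.31 in AIMD mice and 1.08 to 3.81 in vehicle-treated mice. Without vehicle replicate 8 the highest vehicle sum of tuft cell markers was 2.00. Neutrophil markers matter because neutrophils hold much Anxa1. Of 8 such markers 1 was tested, and it was called higher in AIMD mice. These 8 summed to 0.701 to 2.83 FPKM in 6 AIMD mice, 26.4 in AIMD replicate 4 and 0.293 to 1.35 in vehicle-treated mice, with Elane at 0 throughout. Of 9 squamous markers 1 was tested, with Trp63 and Sprr3 at 0, and they summed to 24.4 to 66.2 in AIMD mice and 27.1 to 100.4 in vehicle-treated mice, or 40.0 at most without vehicle replicate 8. Small intestine markers summed to 10.6 to 1741 in vehicle-treated mice, with vehicle replicates 5, 7 and 8 at 1059, 1080 and 1741, and to 18.5 to 251 in AIMD mice. The part of these cells in the annexin values was not tested.

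The members were ordered by mean FPKM, which is per length of gene, and neighbours in that order were compared within each mouse. For Anxa1, Anxa4, Anxa7 and Anxa13 the annotated exon length did not give whole reads from the FPKM. The lengths that did were 2608, 4545, 2965 and 915 bases, where the annotation has 2911, 4645, 5991 and 1348. Read counts of these genes rest on the fitted lengths. The order and the shares of the sum depend on the lengths the authors used. The neighbours follow from the same values, so their differences on the log2 scale are descriptions. In vehicle-treated mice the order was Anxa2, Anxa4, Anxa7, Anxa5, Anxa1, Anxa6, Anxa3, Anxa13, Anxa9 and Anxa11. Anxa2 was above Anxa4, Anxa7 above Anxa5, Anxa5 above Anxa1 and Anxa3 above Anxa13 in 8 of 8 mice. The difference was smaller than its SD over the mice for Anxa4 and Anxa7 (0.10 ± 0.44), Anxa1 and Anxa6 (0.70 ± 0.73), Anxa13 and Anxa9 (0.12 ± 0.81) and Anxa9 and Anxa11 (0.52 ± 0.59). For Anxa6 and Anxa3 it was 0.67 ± 0.63.

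In AIMD mice the order was Anxa2, Anxa7, Anxa4, Anxa1, Anxa5, Anxa6, Anxa11, Anxa3, Anxa13 and Anxa9. Anxa2 was above Anxa7, Anxa4 above Anxa1, Anxa1 above Anxa5, Anxa5 above Anxa6 and Anxa13 above Anxa9 in 7 of 7 mice. The difference was smaller than its SD for Anxa7 and Anxa4 (0.00 ± 0.21), Anxa6 and Anxa11 (0.15 ± 0.31), Anxa11 and Anxa3 (0.06 ± 0.58) and Anxa3 and Anxa13 (0.24 ± 0.60). Anxa1 was above Anxa5 in 7 of 7 AIMD mice, by 1.95 ± 0.26 on the log2 scale, and below it in 8 of 8 vehicle-treated mice, by 1.36 ± 0.43.

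The summed FPKM of the 10 members was 830.6 ± 95.4 with AIMD (SD, n = 7) and 443.8 ± 59.7 with vehicle (SD, n = 8). Anxa2 made up 55.2% ± 6.13 and 54.3% ± 6.94 of this sum. Anxa1 made up 8.75% ± 1.76 in AIMD mice, from 6.67% to 11.4%, and 1.79% ± 0.551 in vehicle-treated mice, from 1.14% to 2.57%. Anxa2, Anxa4 and Anxa7 together held 87.3% ± 2.18 and 91.0% ± 2.57.

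The mice fell into clearly separate sets by 12 clock genes. The first principal component of these genes, centred within the groups, held 93.1% of their variance and was positive in 3 AIMD and 4 vehicle-treated mice (2.26 to 3.40) and negative in 4 and 4 (-4.14 to -1.65). These sets come from the data, not from the labels, which do not give the time of sacrifice. They did follow the replicate numbers of the labels. The positive set held AIMD replicates 1 to 3 and vehicle replicates 1 to 4, and the negative set held the later numbers of each group. Values are therefore described with no test and no correlation. The paper reports that its own model of expression allowed for when the mice were killed, besides the antibiotics. The main limma fit here held no such term, so its SEs and calls do not allow for it. Whether the sets follow the hours of killing was not tested. Anxa7 was the member whose sets were apart in both groups. In vehicle-treated mice it was 52.8 to 64.0 FPKM in the positive set and 73.0 to 113.6 in the negative set, and in AIMD mice 104.6 to 121.2 and 140.1 to 161.9.

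Anxa1 was also higher in the negative set, at 69.1 to 96.2 FPKM against 50.2 to 69.0 in AIMD mice, and at 7.63 to 11.9 against 4.19 to 7.65 in vehicle-treated mice, where the sets touched. Between AIMD and vehicle-treated mice, Anxa1 differed by 3.23 on the log2 scale within the positive set and by 3.00 within the negative set. For Anxa7 these values were 0.92 and 0.59, for Anxa4 0.64 and 0.71, and for Anxa2 1.02 and 0.87. Anxa13 differed by 1.35 in the positive set and by 0.27 in the negative set, which holds vehicle replicate 8.

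**Figure D3:**
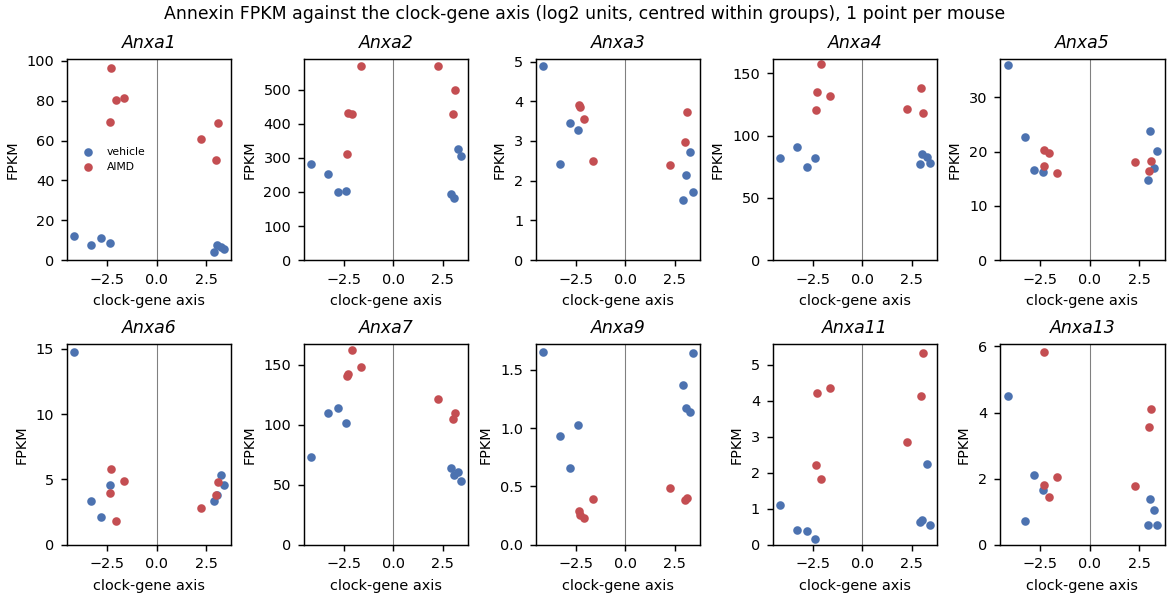
FPKM (y axis, linear, from 0) of each annexin gene against the clock-gene axis (x axis, log2 units, centred within groups), with 1 point per mouse, vehicle-treated in blue and AIMD in red. Mice lie on both sides of 0 in each group, and Anxa1 and Anxa7 are higher to the left, where the axis is negative.

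With values centred within the groups, genes were ranked by likeness to Anxa1 over the 15 mice. Symbols of predicted genes (Gm or Rik) were left out. The 5 most like Anxa1 were Rbfox2, Per1, Kcnma1, Gja1 and Scg5, with Pearson r from 0.85 to 0.88. Without vehicle replicates 3 and 8, the mice farthest from the median of Anxa1, r was from 0.75 to 0.87. Per1 is a clock gene that glucocorticoids also induce, and its r was 0.88, its Spearman rho 0.94, and its r 0.87 without those mice. For Rbfox2, a splicing factor, r was 0.88 and 0.76 without them. None of the 5 passed the threshold between AIMD and vehicle-treated mice, with limma adjusted p from 0.164 to 0.999. The points share libraries, depth and the clock-gene sets, and the correlations are descriptions. Among members, Anxa3 was the most like Anxa1, with r = 0.80, and 0.63 without those mice. Over all 45 pairs of members the median r was 0.20, with 10 pairs above 0.5 and 2 below -0.5.

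Over all genes tested, 36.0% passed the limma threshold of 0.05 on the adjusted p, 19.4% as higher in AIMD mice and 16.6% as lower. Anxa8, a close relative of the members that is typical of stratified epithelia, was also higher in AIMD mice. It had 6.70 ± 4.03 FPKM (SD, n = 7) against 1.52 ± 0.268 (SD, n = 8), with no overlap, and a log2 difference of 1.69 (SE 0.23, limma adjusted p = 4.6e-05). Anxa10 was listed at 0 in all 15 mice.

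The list of S100 and penta-EF-hand partners holds calcium-binding proteins, of which only some are known to attach to annexins, and Ahnak. Of its 14 tested genes 3 were higher and 5 lower in AIMD mice, with a median log2 difference of -0.05. S100a10, the partner of Anxa2, had 1205 ± 316.1 FPKM (SD, n = 7) against 836.7 ± 189.1 (SD, n = 8), a log2 difference of 0.51 (SE 0.19, limma adjusted p = 0.0405). This call was lost in most fits that left out 1 mouse. S100a11, the partner of Anxa1, had 151.0 ± 39.4 and 143.1 ± 34.6 FPKM, a log2 difference of 0.07 (SE 0.19, limma adjusted p = 0.804). Sri, which binds Anxa7, rose by 0.59 (SE 0.11, limma adjusted p = 0.00059) with no overlap. S100g, an intestinal calcium carrier, fell by 2.26 (SE 0.29, limma adjusted p = 2.4e-05), also with no overlap, and S100a13 and S100b fell by 1.10 and 1.53.

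None of 7 formyl peptide receptor genes, which include the receptors of Anxa1, reached the filter on low values. Fpr1 had 12 reads in all AIMD mice and 2 in all vehicle-treated mice, and Fpr2 had 43 and 21. These genes were not tested.

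Phospholipase A2 and eicosanoid genes cover the enzymes that annexins were first described to inhibit and their products. Of 22 tested, 3 were higher and 6 lower, with a median of -0.08. Pla2g4a, the cytosolic phospholipase A2, had a log2 difference of 0.26 (SE 0.19, limma adjusted p = 0.294). Pla2g15, the lysosomal enzyme, fell by 2.39 (SE 0.16, limma adjusted p = 2.8e-08), with no overlap, and Pla2g3 fell by 1.41. Hpgd, which breaks down prostaglandins, rose by 1.08 (SE 0.16, limma adjusted p = 0.000118), and Ptges3 fell by 0.93.

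Of 19 tested genes for the glucocorticoid receptor, its activation and its targets, 8 were higher and 1 lower, with a median of 0.31 that was 0.13 without vehicle replicate 8. Nr3c1, the receptor, had a log2 difference of 0.57 (SE 0.19, limma adjusted p = 0.0285), and the call was lost without AIMD replicate 1, 5, 6 or 7. Scnn1g and Scnn1a, subunits of the epithelial sodium channel, rose by 1.16 and 0.85, and Ddit4 and Errfi1 by 0.80 and 0.73. The targets Klf9 (1.15, SE 0.25, limma adjusted p = 0.00221) and Fkbp5 (0.49, SE 0.19, limma adjusted p = 0.0486) were also called higher. Tsc22d3, the target GILZ, was the gene called lower, by 0.71 (SE 0.18, limma adjusted p = 0.00671). The higher targets and Tsc22d3 thus went in opposite directions. Other tested targets of the list did not pass the threshold, and their log2 differences were of either sign. These were Scnn1b (0.31), Per1 (0.20), Cebpd (0.12), Fkbp4 (0.06), Dusp1 (-0.19), Nfkbia (-0.29) and Sgk1 (-0.46).

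Of 6 tested genes of plasminogen activation, for which Anxa2 is a surface receptor, 1 was higher and 1 lower. Eno1, a glycolytic enzyme that also binds plasminogen, rose by 1.24 (SE 0.23, limma adjusted p = 0.000698), and Serpine2, an inhibitor, fell by 0.67. The activators Plat (0.02, SE 0.21, limma adjusted p = 0.957) and Plau (-0.17, SE 0.22, limma adjusted p = 0.563) did not pass, nor did Plaur (0.43, SE 0.19, limma adjusted p = 0.0855). Of 14 tested other proteins that bind membranes with calcium or repair them, 5 were higher and 1 lower, with a median of 0.26. Capn2, a calpain, rose by 0.75 and the copine Cpne8 by 0.74, both with no overlap, Fer1l6 rose by 0.68, and Cpne2 fell by 0.55.

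**Figure D4:**
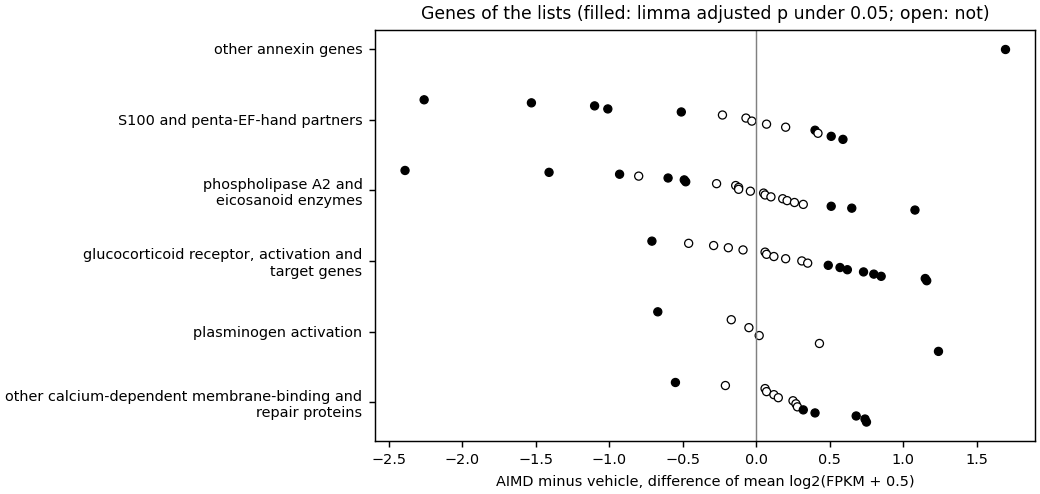
Difference between AIMD and vehicle-treated mice in mean log2(FPKM + 0.5) (x axis) for each tested gene of the 6 lists with tested genes (rows), filled where the limma adjusted p was under 0.05. Genes lie on both sides of 0 in every list of more than 1 gene.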

How the data were processed

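Cecal poly-A RNA of 15 mice was sequenced with a stranded kit, and groups came from the labels. The submitters' processing notes name STAR, featureCounts, DESeq2 and GRCm38. The authors deposited FPKM by gene symbol, and their scaling of counts to FPKM and any use of strand in counting are not given in the sources used here. After division by a median-of-ratios size factor (1.01 in every mouse), log2(FPKM + 0.5) was tested with limma 3.58.1 (R 4.3.3, eBayes with a trend) and Benjamini-Hochberg adjustment over the 11971 genes that reached an FPKM of 0.5 in 7 or more mice. Since the size factor was the same in every mouse, the deposited FPKM were already on a median-of-ratios scale. The alternative without this factor could therefore hardly differ from the main fit. Treatment group was the only term of this main fit. The log2 scale used understates differences of low genes. Reads were recovered from FPKM steps (68.1% of 24279 genes were whole with the GENCODE M21 exon length, tolerance 0.02 of a read) and gave the depths, which limit the precision of low genes. Members and lists were chosen with earlier results of these data known. Named genes were the members, Anxa8 and Anxa10, and the 4 genes of each list with the smallest adjusted p. Fpr1, Fpr2, S100a10, S100a11, Pla2g4a, Nr3c1, Tsc22d3, Plat and Plau were always named. So were the 5 genes most correlated with Anxa1, with symbols of predicted genes (Gm or Rik) left out. Klf9, Fkbp5 and the glucocorticoid targets that were not called were added after the data were seen. In a simulation modelled on this comparison limma called 85% of 200 genes changed by 1 on the log2 scale among 11971. Of its calls 2.9% were false. Genes of low vehicle mean, such as Anxa8, Anxa9, Anxa11 and Anxa13, could not be among the changed ones. Noise was independent between genes, without the clock-gene sets, and a smaller share of genes changed than was called in the data. These rates may thus differ from those of the real fit. Scaling, pseudocount and filter were varied, mice were left out singly, replicate number or the clock-gene axis was added to the fit, and limma voom was run on recovered reads. Values within the clock-gene sets were added after the data were seen. Python 3.11.15 was used for the other steps.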

Additional observations from a re-analysis of the deposited data

Results flagged for a closer look

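Of 22 sets of values (11 annexin genes in each group), 5 held a mouse far from the rest by Dixon's criterion at the 95% level, which chance meets in about 1 set in 20. Vehicle replicate 8 had 36.0 FPKM of Anxa5, where the other vehicle-treated mice had 14.8 to 23.8. It had 14.7 FPKM of Anxa6, where the others had 2.12 to 5.30. It had 4.50 FPKM of Anxa13, from 18 reads, where the others had 0.590 to 2.12. Vehicle replicate 2 had 2.25 FPKM of Anxa11, from 126 reads, where the others had 0.148 to 1.11. AIMD replicate 6 had 15.1 FPKM of Anxa8, from 374 reads, where the other AIMD mice had 3.11 to 7.92.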

How the results depend on the processing

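Direction was followed for the members and for the list genes named by rule, not for all genes tested. Among those followed, no difference past the threshold changed direction under any alternative. The Anxa9 difference was -1.51 with a pseudocount of 0.1, -0.69 with a pseudocount of 1 and -1.70 with limma voom on recovered reads, and the Anxa11 difference was 2.37 with limma voom. The lower call in plasminogen activation was lost, leaving 0, without a filter and with a filter at an FPKM of 1. S100a10, Nr3c1 and Serpine2 also lost their calls without a filter (limma adjusted p = 0.0933, 0.0553 and 0.0515). Higher calls in the glucocorticoid list numbered 8 in the main fit, 6 without a filter and 6 to 8 with single mice left out. When single mice were left out, the higher calls ranged from 1 to 2 in plasminogen activation and from 1 to 3 in phospholipase A2 and eicosanoid enzymes, and the lower calls from 1 to 2 in the glucocorticoid list and from 3 to 5 in S100 and penta-EF-hand partners. The first became 2 without AIMD replicate 1 or vehicle replicate 8, the second 1 without AIMD replicate 6 or 7 or vehicle replicate 1 or 6, the third 2 without AIMD replicate 4, and the fourth 3 without vehicle replicate 1, 2, 5 or 6. In exact sign-flip tests of neighbouring levels, whose pairs follow from the same means and which support nothing here, those past the threshold in AIMD mice ranged from 0 to 5, being 0 whenever an AIMD mouse was left out, since fewer mice raise the smallest exact p. Deviations of mice with the same replicate number had correlations from -0.35 to 0.43. The most similar vehicle-treated mouse had the same number only for AIMD replicate 7. Apart from replicate 4, mice with the same number lay in the same clock-gene set. A replicate block gives vehicle replicate 8 no partner and so no weight. It called 2388 genes higher and 2259 lower in AIMD mice, against 2322 and 1993, and 2 higher in plasminogen activation. With the clock-gene axis added to the fit, 2716 genes were called higher and 2394 lower, the most of any setting. Low reads limit Anxa9, Anxa11 and Anxa13.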
